A study of Brachypodium distachyon with 12 samples.

Results

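The genes described here are those of nitrogen uptake and assimilation in the grass Brachypodium distachyon, chosen from the authors' gene descriptions. A gene was taken where its description holds NRT1/ PTR, POT family, nitrate transporter, ammonium transporter, nitrate reductase, nitrite reductase, glutamine synthetase, glutamate synthase or asparagine synthetase. The rule found 131 of 39068 genes and used no measured value. RNA came from whole roots and whole shoots of the wild type line Bd21-3. The 4 groups, with 3 libraries each, were week 4 roots, week 2 roots, week 4 shoots and week 2 shoots, and each biological replicate came from different plants. The plants stood in sterile vessels, 2 seedlings to a vessel, on 40 mL of 0.5 × MS medium, with a 16 h day, an 8 h night and 22 °C. Organs were taken whole, so every value averages all cell types of a root or a shoot, and week stands for both the age of the plant and the time the medium had been in use.

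Plants take up nitrogen from solution mainly as nitrate and ammonium, and MS medium supplies both. Nitrate enters through NRT1/PTR family (NPF) carriers and through NRT2 carriers, which need the partner protein NAR2, and ammonium enters through AMT carriers. Nitrate reductase in the cytosol makes nitrite, and nitrite reductase in the plastid makes ammonium. Glutamine synthetase joins ammonium to glutamate, glutamate synthase (GOGAT) turns glutamine and 2-oxoglutarate into glutamate, and asparagine synthetase makes asparagine, a compound used to move and store nitrogen.

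Of the 131 genes, 111 passed the filter on low counts and were tested, and 20 did not. The largest class was the NRT1/PTR family with 89 genes, of which 78 passed. The others were 11 genes described as nitrate transporters (5 passed), 8 ammonium transporters (5), 2 NAR2-type genes (2), 2 nitrate reductases (2), 1 nitrite reductase (1), 5 glutamine synthetase matches (5), 8 glutamate synthase matches (8) and 5 asparagine synthetase matches (5). Some descriptions name another protein. The words glutamate synthase stood inside a longer name in 5 genes: 2 folylpolyglutamate synthases, the acetyltransferases NAGS1 and NAGS2, and ArgJ of arginine synthesis. Without these 5, the counts of genes that passed the test in the 5 comparisons below would be 77, 78, 18, 32 and 11 of 106, in place of 81, 83, 21, 34 and 11 of 111. Protein fluG carries a glutamine synthetase domain, 4 genes match At3g43790 of Arabidopsis, named only a probable peptide/nitrate transporter, and 5 genes named NRT1/PTR list no POT domain. Those of them that passed the filter stayed in both sets of counts. The names are best matches, so a name states likeness of sequence and not a tested activity.

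Depth was even, with total counts of 17261299 to 24186744 per library. CPM below means counts per 1e6 of scaled library size, given per library or as mean ± SD with n = 3. Summed CPM of the 11 root cap genes lay at 636 to 836 in roots of week 4, 667 to 792 in roots of week 2, 0.953 to 1.82 in shoots of week 4 and 1.24 to 2.97 in shoots of week 2. The 27 genes for chlorophyll a-b binding proteins summed to CPM of 6411 to 7332 in roots of week 4, 1119 to 2299 in roots of week 2, 63229 to 86379 in shoots of week 4 and 63545 to 78409 in shoots of week 2. The organ labels therefore fit these markers, but leaf-type transcripts were higher in week 4 roots than in week 2 roots. Shoot replicate 1 of week 2 had the highest root cap sum of the shoots. The 3 genes for Casparian strip membrane proteins, also root markers, summed to CPM of 55.7 to 79.2 in roots of week 4 and 52.7 to 77.2 in roots of week 2. In shoots they summed to 2.97 to 3.81 at week 4 and 3.50 to 4.00 at week 2. For these genes replicate 1 of week 2 shoots had 3.57 CPM, below replicate 2 at 4.00 CPM.

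The first question was how the nitrogen genes divide between the organs. At week 4, 81 of the 111 tested genes (73.0%) differed between roots and shoots, 47 higher and 34 lower in roots, where 60.9% of all 26463 tested genes were called, 32.4% higher and 28.5% lower. At week 2, 83 differed (74.8%), 44 higher and 39 lower in roots, where 56.1% of all tested genes were called, 28.4% higher and 27.7% lower. A gene is called where the edgeR quasi-likelihood test, adjusted over all tested genes, gives p under 0.05. The median log2 difference of the 111, root minus shoot, was 0.22 at week 4 and -0.00 at week 2, beside 0.04 and 0.01 for all tested genes. The set had both root-type and shoot-type members. Of the 111, 41 were higher in roots at both weeks and 29 lower at both. The direction changed for 2, while 20 differed at a single week and 19 at neither. This split over both weeks was not counted for all tested genes, of which 60.9% were called at week 4 and 56.1% at week 2. In whole organs, fewer cells of a type and less RNA per cell cannot be told apart.

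**Figure D1:**
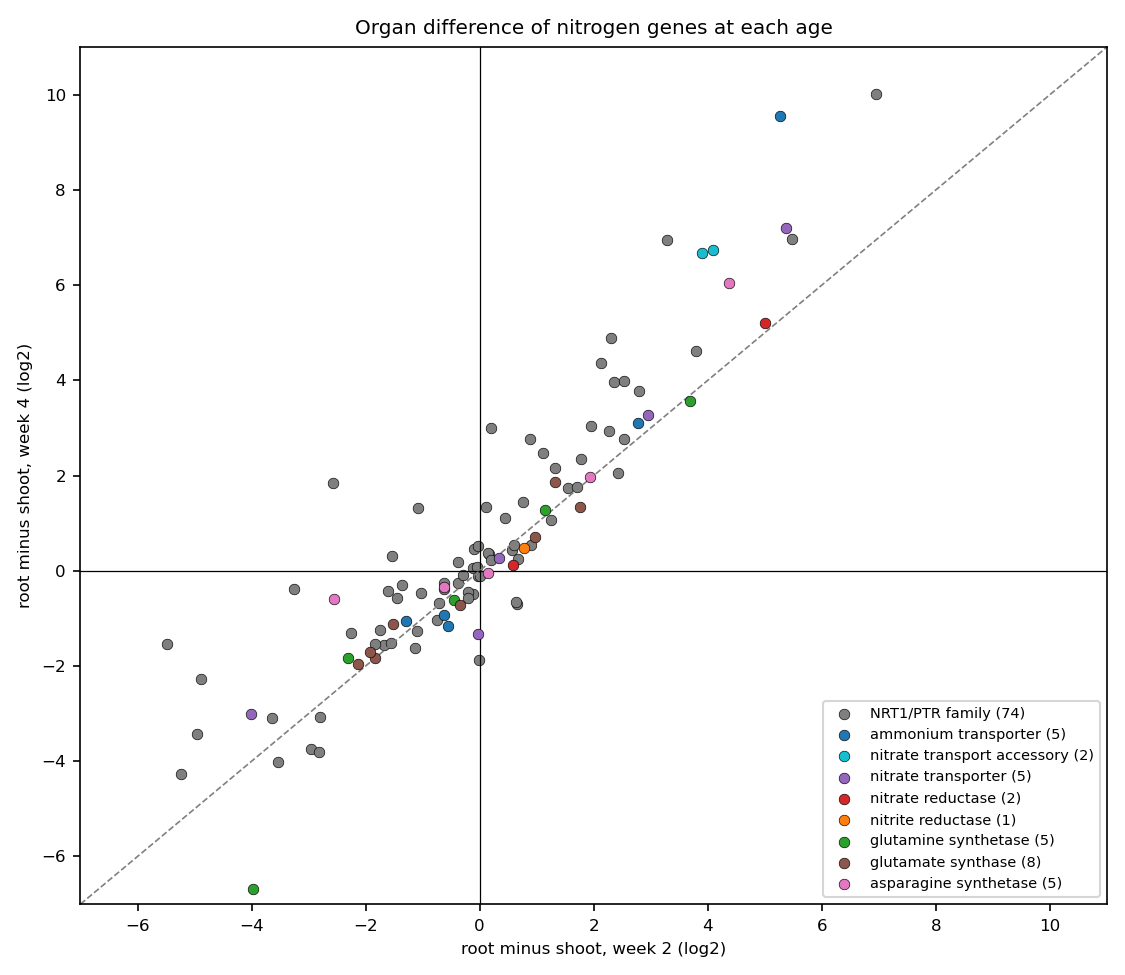
Log2 difference between roots and shoots at week 2 (x axis) and week 4 (y axis) for 107 tested nitrogen genes, coloured by role, with the number plotted in brackets. The dashed line marks equal differences, and 4 tested genes with a group at 0 counts are left out. Points at the upper right, led by an NPF6.3 copy and AMT1;2, are root-type at both ages, and points in the lower left are shoot-type at both.

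Among the carriers of nitrate, the high-affinity NRT2 carriers had few counts. The 4 NRT2.1 copies that lie together on chromosome 3, 975267 to 1008895, had 8 to 24 counts each over all 12 libraries. Reads that match more than 1 of these 4 copies could be split or dropped by the counting, so their level is uncertain. The other NRT2.1 copy, BdiBd21-3.2G0347200, had 0 counts, and the NRT2.4 match BdiBd21-3.2G0517400 had 19. Only the NRT2.3 match BdiBd21-3.2G0609200 passed the filter. It had 0, 0.676 and 1.09 CPM in roots of week 4 and 1.62, 2.61 and 3.65 CPM in roots of week 2, against 1.53, 1.54 and 1.38 CPM in shoots of week 4 and 3.27, 3.25 and 1.51 CPM in shoots of week 2. The week 4 root libraries lay below all shoot libraries, with replicate 1 at 0, but no comparison passed the test.

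The partner protein was, by contrast, clearly measured in roots. The NAR2.1 copies BdiBd21-3.3G0632700 and BdiBd21-3.3G0632800 lie side by side on chromosome 3, 49191905 to 49200966. The first had 13.4, 31.9 and 39.8 CPM in roots of week 4 and 16.8, 30.7 and 25.1 CPM in roots of week 2, against 0.0465, 0.626 and 0.159 CPM in shoots of week 4 and 2.16, 1.63 and 0.431 CPM in shoots of week 2. The second had 9.62, 19.4 and 20.3 CPM in roots of week 4 and 9.97, 19.1 and 16.5 CPM in roots of week 2, against 0.186, 0.114 and 0.159 CPM in shoots of week 4 and 1.96, 0.743 and 0.323 CPM in shoots of week 2. Every root library lay above every shoot library for both copies, and replicate 1 was the lowest root library at each week. The first copy was higher in roots by 6.73 ± 0.77 (SE; edgeR adjusted p = 2.66e-05) on the log2 scale at week 4 and by 4.09 ± 0.62 (SE; edgeR adjusted p = 0.000233) at week 2. The second was higher in roots by 6.68 ± 0.66 (SE; edgeR adjusted p = 5.81e-06) at week 4 and by 3.90 ± 0.52 (SE; edgeR adjusted p = 6.43e-05) at week 2. Reads that match both copies could be split or dropped by the counting, whose handling of such reads no source used here states.

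NPF6.3 is another name of the Arabidopsis nitrate transporter and sensor NRT1.1, and its matches here differed in organ. BdiBd21-3.3G0432100 (chromosome 3, 35310323 to 35312981, plus strand) had 31.9, 67.5 and 79 CPM in roots of week 4 and 23.7, 82.5 and 62.2 CPM in roots of week 2, against 0.0929, 0.0569 and 0 CPM in shoots of week 4 and 1.31, 0 and 0.0539 CPM in shoots of week 2. Root and shoot libraries were far apart, and again the lowest root library of each week was replicate 1. At week 4 the shoots held only 3 counts, so the ratio of 1153 has a 95% counting interval, which covers counting error only, from 394 to 5591 (edgeR adjusted p = 4.48e-05). At week 2 the log2 difference was 6.94 ± 0.92 (SE; edgeR adjusted p = 0.000103). The neighbouring copy BdiBd21-3.3G0432200 went the other way, with 1.87 ± 0.577 CPM in roots of week 4 against 5.76 ± 1.45 CPM in shoots of week 4, lower in roots at both weeks. Its week 2 call was lost without week 2 shoot replicate 1 (edgeR adjusted p = 0.0512).

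The third copy, BdiBd21-3.3G0226900 (chromosome 3, 15102646 to 15109579, plus strand), was found in both organs at 101 ± 11.9 CPM in roots of week 4, 111 ± 6.12 CPM in roots of week 2, 141 ± 20.8 CPM in shoots of week 4 and 119.9 ± 11.8 CPM in shoots of week 2. It was lower in roots at week 4, with a log2 difference of -0.48 ± 0.13 (SE; edgeR adjusted p = 0.00604), and did not pass the test at week 2. Among the 4 copies, its level per kilobase was the highest averaged over all libraries, at 50.4 CPM per kilobase, against 12.8 for 3G0432100. The remaining copy, BdiBd21-3.1G1044700, was low everywhere and lower in roots at both weeks, with 1.98 ± 0.887 CPM in shoots of week 2, its highest group.

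**Figure D2:**
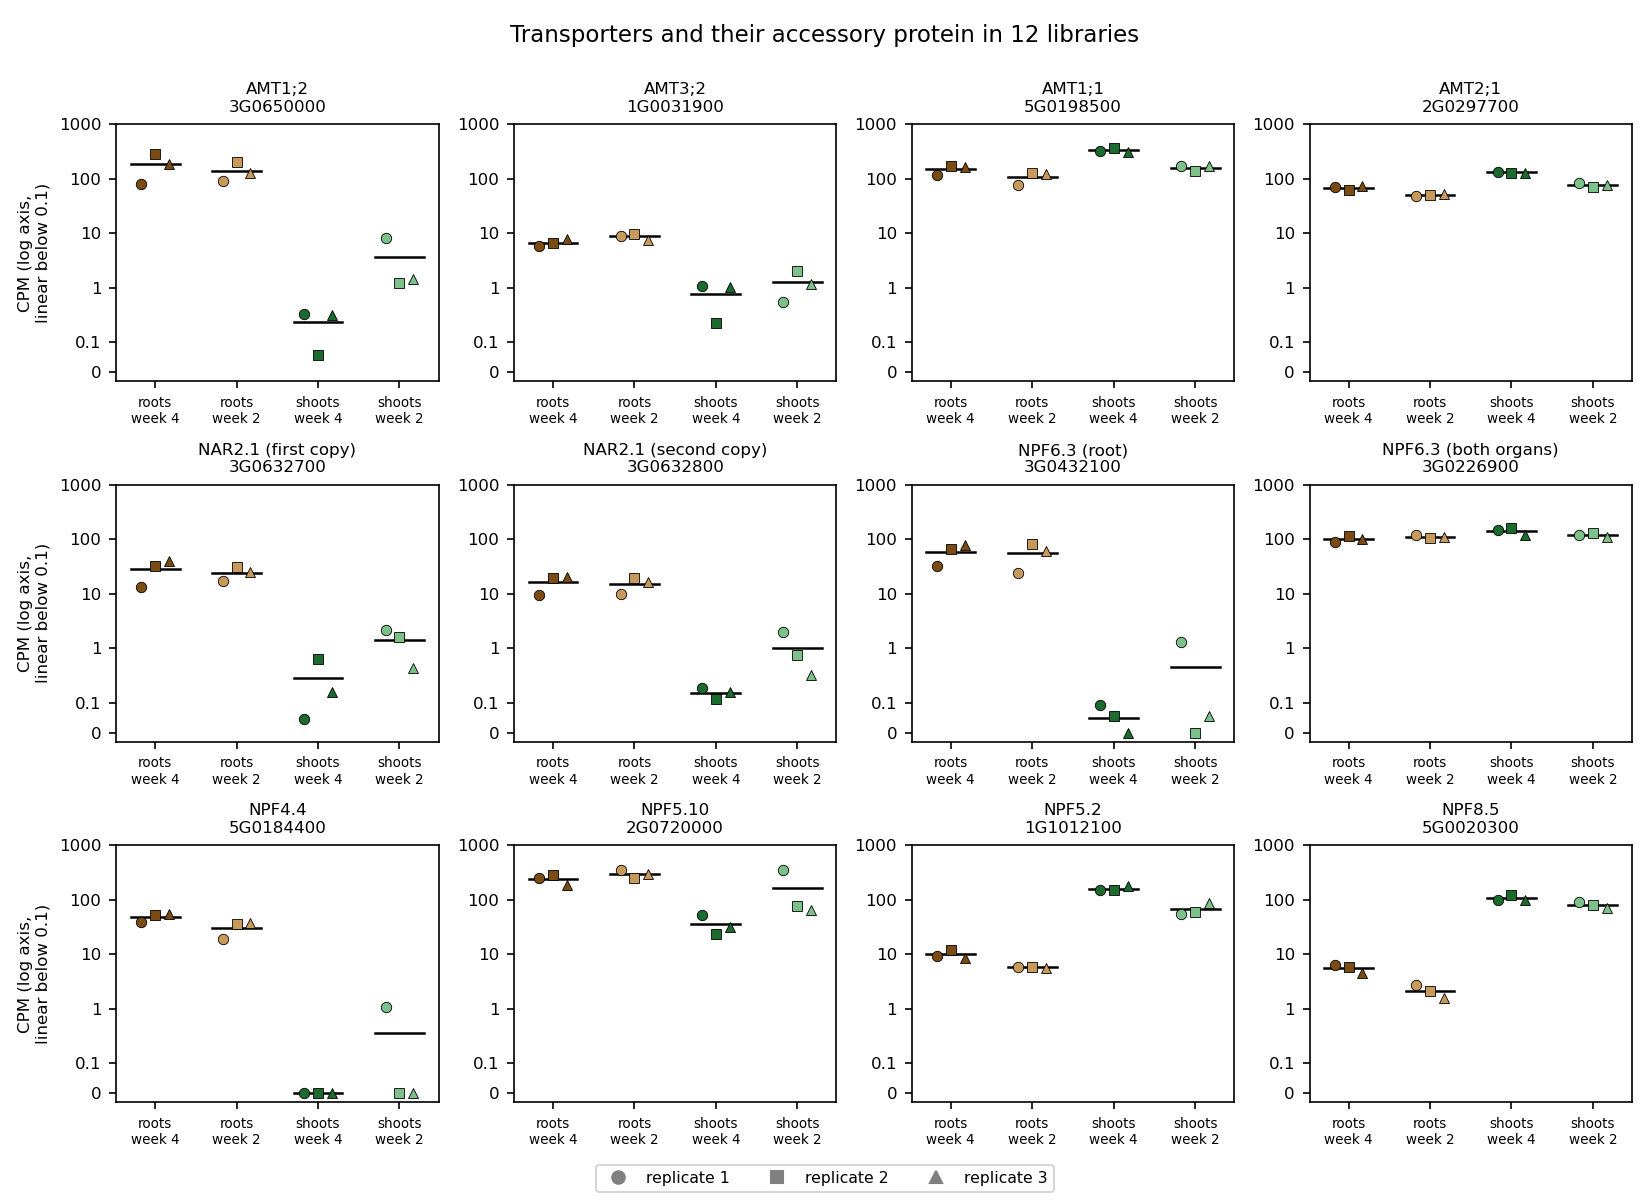
CPM of 12 transport genes in each of the 12 libraries, on an axis that is logarithmic above 0.1 and linear below it. Points are libraries, with a marker for each replicate number, and the line is the group mean. AMT1;2, AMT3;2, both NAR2.1 copies, NPF4.4 and an NPF6.3 copy sit at higher levels in every root library than in any shoot library, and NPF5.2 and NPF8.5 show the reverse.

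The ammonium transporters split between the organs as well. AMT1;2, BdiBd21-3.3G0650000 (chromosome 3, 50316524 to 50318832, plus strand), had 81.8, 287 and 188 CPM in roots of week 4 and 90.3, 200.4 and 127 CPM in roots of week 2, against 0.325, 0.0569 and 0.318 CPM in shoots of week 4 and 8.24, 1.21 and 1.45 CPM in shoots of week 2. Groups of roots and shoots did not overlap, and shoot replicate 1 of week 2 stood above the other shoots. AMT1;2 was higher in roots by 9.56 ± 1.05 (SE; edgeR adjusted p = 2.54e-05) on the log2 scale at week 4 and by 5.26 ± 0.78 (SE; edgeR adjusted p = 0.000245) at week 2.

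AMT1;1, BdiBd21-3.5G0198500 (chromosome 5, 19002521 to 19005678, plus strand), had 119.5, 169 and 167 CPM in roots of week 4 and 78.1, 126 and 124 CPM in roots of week 2, against 321, 373 and 317 CPM in shoots of week 4 and 172, 139 and 169 CPM in shoots of week 2. Week 4 shoots stood clear of all other groups, and at week 2 the highest root library lay below the lowest shoot library. AMT1;1 was lower in roots, with a log2 difference of -1.15 ± 0.19 (SE; edgeR adjusted p = 0.000246) at week 4 and of -0.55 ± 0.19 (SE; edgeR adjusted p = 0.0267) at week 2, a call lost without root or shoot replicate 1 of week 2 (highest edgeR adjusted p = 0.0847). AMT2;1, BdiBd21-3.2G0297700, of the subfamily tied to ammonium movement inside the plant in Arabidopsis, was also lower in roots, with a log2 difference of -0.93 ± 0.09 (SE; edgeR adjusted p = 4.4e-06) at week 4 and -0.62 ± 0.09 (SE; edgeR adjusted p = 0.000122) at week 2.

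AMT3;2, BdiBd21-3.1G0031900, was a lowly expressed root gene, at 6.72 ± 1.04 CPM in roots of week 4 and 8.71 ± 1.11 CPM in roots of week 2, against 0.767 ± 0.468 CPM in shoots of week 4 and 1.26 ± 0.749 CPM in shoots of week 2. AMT3;3, BdiBd21-3.3G0604000, was lower in roots, at 1.36 ± 0.255 CPM in roots of week 4 against 2.84 ± 0.448 CPM in shoots of week 4, with log2 differences of -1.06 at week 4 and -1.30 at week 2. Its call was lost in turn without some root and some shoot libraries at each week, to an edgeR adjusted p of 0.0747 at most. The 3 matches to AMT3;1 had 0, 0 and 1 counts. Scaled per kilobase, AMT1;2 held 33.2% to 59.8% of the ammonium transporter signal in week 4 roots and 43.9% to 56.7% in roots of week 2. In week 4 root replicate 1, AMT1;1 held more, at 35.5% against 33.2% for AMT1;2. AMT1;1 held 63.2% to 67.8% in shoots of week 4 and 56.9% to 60.7% in shoots of week 2.

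The NADH-type nitrate reductase, BdiBd21-3.3G0500200 (chromosome 3, 40393837 to 40398925, plus strand), was well expressed in both organs. It had 762, 841 and 769 CPM in roots of week 4 and 455, 759.9 and 686 CPM in roots of week 2, against 626, 773 and 788 CPM in shoots of week 4 and 450.5, 425 and 393 CPM in shoots of week 2. Roots and shoots overlapped at week 4, where the log2 difference was 0.12 ± 0.17 (SE; edgeR adjusted p = 0.577). At week 2 every root library lay above every shoot library and the difference was 0.58 ± 0.17 (SE; edgeR adjusted p = 0.0131), a call lost without root replicate 2 or shoot replicate 3 of week 2 (highest edgeR adjusted p = 0.0737).

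The NAD(P)H-type nitrate reductase, BdiBd21-3.3G0763400 (chromosome 3, 57388711 to 57392098, plus strand), which can use either cofactor, was root-type. It had 214, 323 and 328 CPM in roots of week 4 and 362, 394 and 329 CPM in roots of week 2, against 12.1, 7.74 and 3.44 CPM in shoots of week 4 and 13.7, 10.2 and 9.86 CPM in shoots of week 2. No shoot library came near a root library, and the log2 difference was 5.21 ± 0.40 (SE; edgeR adjusted p = 1.19e-06) at week 4 and 5.01 ± 0.39 (SE; edgeR adjusted p = 1.42e-06) at week 2. Per kilobase, the NAD(P)H type held 28.1 ± 4.28% of the nitrate reductase signal in week 4 roots and 38.9 ± 6.53% in roots of week 2, against 1.2 ± 0.801% in shoots of week 4 and 2.79 ± 0.357% in shoots of week 2 (SD, n = 3 each). The single nitrite reductase, BdiBd21-3.3G0767200 (chromosome 3, 57618550 to 57621834, plus strand), had 571, 751 and 874 CPM in roots of week 4 and 525, 858 and 717 CPM in roots of week 2, against 457, 549 and 558 CPM in shoots of week 4 and 336, 432 and 465 CPM in shoots of week 2. It was higher in roots at week 2, by 0.77 ± 0.21 (SE; edgeR adjusted p = 0.00739), and missed the threshold at week 4 at 0.49 ± 0.21 (SE; edgeR adjusted p = 0.0578).

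By group means per kilobase, glutamine synthetase and glutamate synthase each had a leading gene that differed between the 2 organs. Single libraries did not all follow. In week 2 root replicate 1, glutamine synthetase 1-1 held 47.6% of the glutamine synthetase signal and glutamine synthetase 1-2 held 42.2%. In week 4 root replicate 1 the ferredoxin-dependent and NADH-dependent glutamate synthases held nearly equal shares, 49.98% and 49.57%. The cytosolic glutamine synthetase 1-2, BdiBd21-3.1G0937700 (chromosome 1, 68734378 to 68738413, plus strand), had 617, 2375 and 2135 CPM in roots of week 4 and 959, 2339 and 1762 CPM in roots of week 2, against 134, 135 and 162 CPM in shoots of week 4 and 149, 112 and 131 CPM in shoots of week 2. The lowest root library was above the highest shoot library, though replicate 1 of each root group lay far below its group. The log2 difference was 3.57 ± 0.48 (SE; edgeR adjusted p = 8.16e-05) at week 4 and 3.69 ± 0.49 (SE; edgeR adjusted p = 7.42e-05) at week 2.

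The chloroplastic glutamine synthetase (GS2), BdiBd21-3.5G0322200 (chromosome 5, 26460525 to 26465180, plus strand), which in leaves also takes up the ammonium released in photorespiration, had 467, 512 and 501 CPM in roots of week 4 and 232, 389 and 393 CPM in roots of week 2, against 1649.5, 1928 and 1725 CPM in shoots of week 4 and 1739.8, 1658 and 1645 CPM in shoots of week 2. All shoot libraries lay above all root libraries, with log2 differences of -1.84 ± 0.18 (SE; edgeR adjusted p = 4.31e-06) at week 4 and -2.31 ± 0.19 (SE; edgeR adjusted p = 7.02e-07) at week 2. Per kilobase, GS2 held 14.2% to 28.0% of the signal of the 4 glutamine synthetases in week 4 roots and 10.2% to 12.7% in roots of week 2, against 79.1% to 81.2% in shoots of week 4 and 73.2% to 74.4% in shoots of week 2. Its level of 821 ± 66.9 CPM per kilobase in week 4 shoots compared with 796 ± 444 for glutamine synthetase 1-2 in roots of week 4, and these 2 were the highest of all members averaged over the 12 libraries.

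Glutamine synthetase 1-1, BdiBd21-3.3G0789600, was also higher in roots, by 1.29 ± 0.13 (SE; edgeR adjusted p = 5.08e-06) on the log2 scale at week 4 and 1.15 ± 0.13 (SE; edgeR adjusted p = 1.28e-05) at week 2. It had 535 ± 84.3 CPM in roots of week 4 and 770.4 ± 59.5 CPM in roots of week 2, against 219.5 ± 16.9 CPM in shoots of week 4 and 346 ± 21.5 CPM in shoots of week 2. Glutamine synthetase 1-3, BdiBd21-3.1G0153400, was low and shoot-type, with 0, 0 and 0.126 CPM in roots of week 4 and 1.36, 0 and 0 CPM in roots of week 2, against 2.51, 5.63 and 6.14 CPM in shoots of week 4 and 5.83, 6.37 and 9.32 CPM in shoots of week 2. Week 4 roots held 3 counts of it, and the ratio of week 4 shoots to week 4 roots was 115 with a 95% counting interval from 39.0 to 562. Reads shared among the cytosolic copies could move counts between them.

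**Figure D3:**
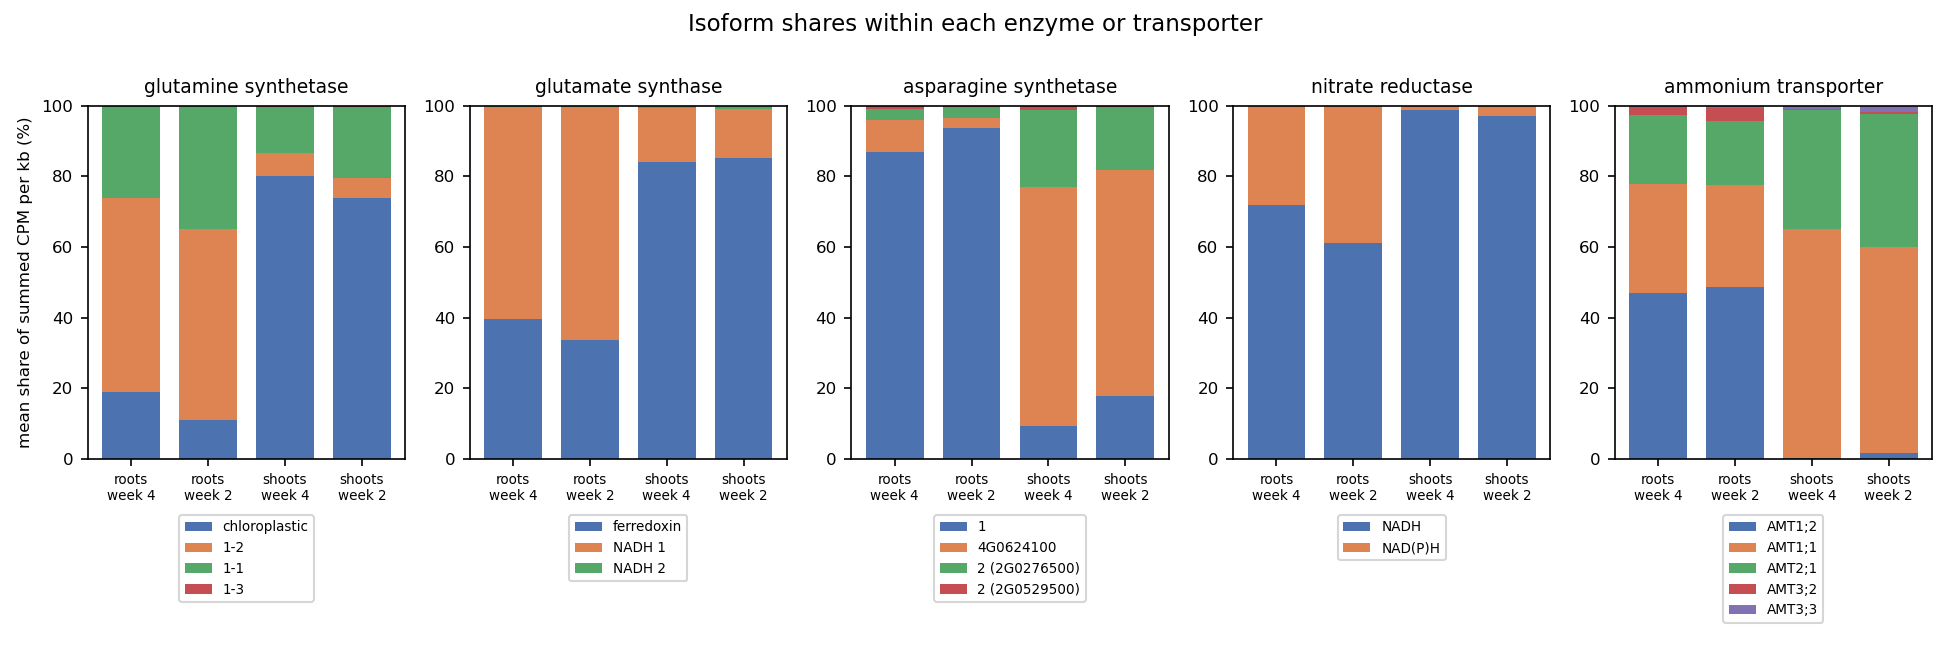
Mean share of each gene in the summed CPM per kilobase of its enzyme or transporter (y axis, percent) in week 4 roots, week 2 roots, week 4 shoots and week 2 shoots. Chloroplastic glutamine synthetase, ferredoxin-dependent glutamate synthase, asparagine synthetase 4G0624100, AMT1;1 and the NADH-type nitrate reductase take larger shares in both shoot groups than in both root groups.

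Glutamate synthase showed the same kind of division. The ferredoxin-dependent form, BdiBd21-3.1G0249400 (chromosome 1, 15387664 to 15405287, plus strand), draws electrons from ferredoxin, which photosynthesis reduces in leaves. It had 863, 1122 and 933 CPM in roots of week 4 and 405, 698 and 655 CPM in roots of week 2, against 2915, 3704 and 3785 CPM in shoots of week 4 and 2084, 2043 and 2161 CPM in shoots of week 2. It was lower in roots, with a log2 difference of -1.83 ± 0.21 (SE; edgeR adjusted p = 1.23e-05) at week 4 and of -1.84 ± 0.21 (SE; edgeR adjusted p = 1.29e-05) at week 2, with no overlap of the organs.

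The NADH-dependent glutamate synthase 1, BdiBd21-3.2G0596200 (chromosome 2, 46558027 to 46569975, minus strand), had 1006, 2209 and 2350.1 CPM in roots of week 4 and 955, 1779.8 and 1337 CPM in roots of week 2, against 703, 726 and 762 CPM in shoots of week 4 and 395, 373 and 435 CPM in shoots of week 2. Root libraries lay above shoot libraries of the same week, and replicate 1 was the lowest root library at each week. The log2 difference was 1.34 ± 0.29 (SE; edgeR adjusted p = 0.00183) at week 4 and 1.76 ± 0.30 (SE; edgeR adjusted p = 0.000331) at week 2. Per kilobase it held 60.1 ± 9.49% of the glutamate synthase signal in week 4 roots and 66.0 ± 2.52% in roots of week 2, against 15.2 ± 1.46% in shoots of week 4 and 13.8 ± 0.581% in shoots of week 2 (SD, n = 3 each). Glutamate synthase 2 [NADH], BdiBd21-3.2G0226600, was lower in roots at 7.09 ± 2.23 CPM in roots of week 4 against 27.5 ± 3.93 CPM in shoots of week 4, and at 6.5 ± 0.881 CPM in roots of week 2 against 28.7 ± 3.08 CPM in shoots of week 2.

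**Figure D4:**
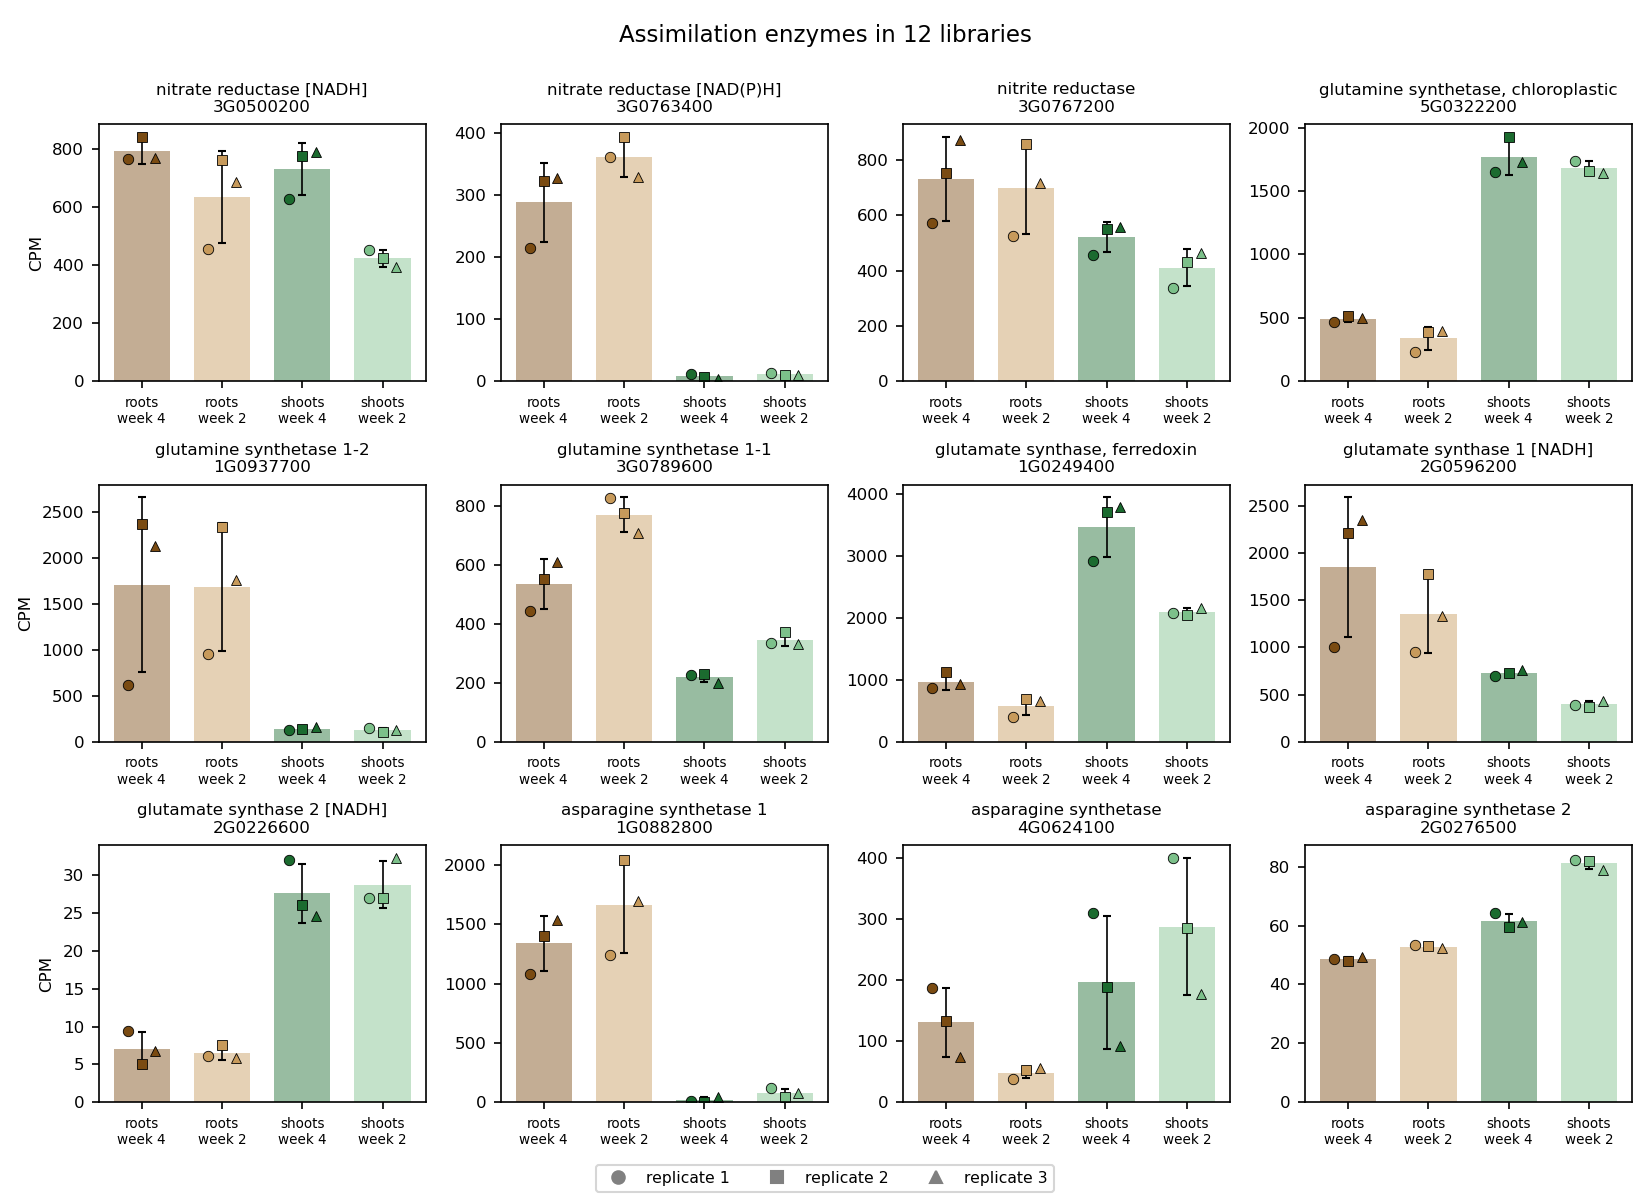
CPM of 12 enzyme genes (y axes start at 0 and differ between panels) in week 4 roots, week 2 roots, week 4 shoots and week 2 shoots. Bars are means, error bars SD over 3 libraries, and points single libraries with a marker for each replicate number. Glutamine synthetase 1-2, asparagine synthetase 1 and the NAD(P)H-type nitrate reductase stand high in roots, and chloroplastic glutamine synthetase and ferredoxin-dependent glutamate synthase in shoots.

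Asparagine synthetase 1, BdiBd21-3.1G0882800 (chromosome 1, 65170485 to 65174380, plus strand), had 1079.9, 1404 and 1534 CPM in roots of week 4 and 1245, 2043 and 1699 CPM in roots of week 2, against 11.6, 1.42 and 48.2 CPM in shoots of week 4 and 117, 48 and 76.1 CPM in shoots of week 2. The shoot libraries varied widely among themselves, yet all lay far below the roots. The log2 difference was 6.04 ± 1.00 (SE; edgeR adjusted p = 0.000466) at week 4 and 4.37 ± 0.92 (SE; edgeR adjusted p = 0.00242) at week 2.

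The copy BdiBd21-3.4G0624100 (chromosome 4, 48430384 to 48433852, plus strand) was the leading asparagine synthetase per kilobase in each shoot library. It had 187, 133 and 73.7 CPM in roots of week 4 and 37.8, 52.4 and 55.7 CPM in roots of week 2, against 309, 188 and 91.8 CPM in shoots of week 4 and 400.2, 285 and 177 CPM in shoots of week 2. It was lower in roots at week 2, with a log2 difference of -2.56 ± 0.49 (SE; edgeR adjusted p = 0.00132), while the week 4 groups overlapped, at -0.58 ± 0.47 (SE; edgeR adjusted p = 0.302). Asparagine synthetase 2, BdiBd21-3.2G0276500, had a small and even difference, at 48.7 ± 0.765 CPM in roots of week 4 and 52.8 ± 0.504 CPM in roots of week 2, against 61.6 ± 2.38 CPM in shoots of week 4 and 81.1 ± 1.96 CPM in shoots of week 2, lower in roots at both weeks. The copy BdiBd21-3.2G0529500, also named asparagine synthetase 2, stayed under 1 CPM in each library and passed no test.

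The NRT1/PTR family carries nitrate and, depending on the member, peptides, hormones or other compounds, so its subfamily numbers do not all stand for nitrate. At week 4, 34 of the 78 tested members were higher and 22 lower in roots, and at week 2, 29 were higher and 25 lower. Among all tested genes 32.4% were higher and 28.5% lower in roots at week 4, and 28.4% higher and 27.7% lower at week 2. In subfamily NPF4, 7 of 12 tested genes were higher and 3 lower in roots at week 4, and 7 higher and 2 lower at week 2. In subfamily NPF6, 1 of 7 was higher and 5 lower at each week. Of 21 tested NPF5 genes 10 were higher and 5 lower in roots at week 4, but 7 higher and 6 lower at week 2. Of 25 tested NPF8 genes 11 were higher and 4 lower at week 4, but 8 higher and 7 lower at week 2.

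The family member with the highest level per kilobase, averaged over the 12 libraries, was the NPF2.11 match BdiBd21-3.1G0162500 (chromosome 1, 9247914 to 9253520, plus strand), of a subfamily that holds glucosinolate and nitrate carriers in Arabidopsis. It had 234, 267 and 289 CPM in roots of week 4 and 332, 299.9 and 291 CPM in roots of week 2, against 239, 204 and 144 CPM in shoots of week 4 and 204, 219 and 202 CPM in shoots of week 2. Roots and shoots overlapped at week 4, and that call, 0.43 ± 0.16 (SE; edgeR adjusted p = 0.0347), was lost under 7 of the 12 fits that leave out a library (highest edgeR adjusted p = 0.182), without the 50 most counted genes in the scaling and with the compared libraries alone. At week 2 roots stood above shoots, by 0.56 ± 0.16 (SE; edgeR adjusted p = 0.00961). The other NPF2.11 match, BdiBd21-3.4G0004700, was shoot-type at 4.84 ± 1.2 CPM in roots of week 4 against 68.3 ± 10.1 CPM in shoots of week 4, and at 4.78 ± 1.68 CPM in roots of week 2 against 33.8 ± 4.79 CPM in shoots of week 2.

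Some NPF4 genes were nearly silent in shoots. The NPF4.4 match BdiBd21-3.5G0184400 (chromosome 5, 18080347 to 18084692, plus strand) had 39.7, 53.1 and 54.4 CPM in roots of week 4 and 19.4, 35.6 and 37 CPM in roots of week 2, against 0 counts in all week 4 shoots and 1.06, 0 and 0 CPM in shoots of week 2. Its level in week 4 roots was at least 951-fold higher than the floor of 3 counts over the week 4 shoot group, and all its shoot counts came from shoot replicate 1 of week 2. It belongs to a group of 4 NPF4 genes on chromosome 5, 18047663 to 18084692, 1 of 19 groups of neighbouring members. All 4 were higher in roots at both weeks, where 32.4% of all tested genes were higher at week 4 and 28.4% at week 2. Its neighbour BdiBd21-3.5G0184300 was also at 0 counts in week 4 shoots and at least 148-fold higher in week 4 roots. Other root-type members were BdiBd21-3.4G0302200 (NPF4.4), at 51.1 ± 13.6 CPM in roots of week 4 against 2.47 ± 0.238 CPM in shoots of week 4, BdiBd21-3.2G0387000 (NPF8.3), at 9.38 ± 2.62 CPM in roots of week 4 against 0.0706 ± 0.122 CPM in shoots of week 4, and BdiBd21-3.2G0335300 (NPF3.1), at 7.06 ± 3.44 CPM in roots of week 4 against 0.053 ± 0.0917 CPM in shoots of week 4.

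NPF5.10 match BdiBd21-3.2G0720000 (chromosome 2, 54200389 to 54203475, plus strand) was next by that average, at 64.9 CPM per kilobase, but not in each group. Of the family's summed CPM, not scaled by length, it held 10.2 ± 2.18% in roots of week 4 and 13.3 ± 1.83% in roots of week 2. In shoots it held 1.77 ± 0.777% at week 4 and 7.91 ± 7.01% at week 2 (all SD, n = 3 each). It had 251, 291 and 189 CPM in roots of week 4 and 346, 253 and 296 CPM in roots of week 2, against 52.5, 23.1 and 31.8 CPM in shoots of week 4 and 348, 76 and 63.8 CPM in shoots of week 2. Shoot replicate 1 of week 2 was as high as the roots, while the other week 2 shoots were far lower. It was higher in roots at week 4, by 2.77 ± 0.62 (SE; edgeR adjusted p = 0.00311), and not called at week 2, at 0.87 ± 0.58 (SE; edgeR adjusted p = 0.231). The same library held 2.97 CPM of root cap genes and 3.57 CPM of Casparian strip membrane protein genes. Replicate 2 of week 2 shoots held 4.00 CPM of the latter. The part of these root markers in the result was not tested.

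Among members with an average log2 CPM of 2 or more, the 3 lowest log2 differences at week 4 were those of NPF8.5 match BdiBd21-3.5G0020300, NPF5.2 match BdiBd21-3.1G1012100 and NPF2.11 match 4G0004700 (-3.82). At week 2 they were those of NPF6.2 match BdiBd21-3.2G0521300, the same NPF8.5 match and NPF3.1 match BdiBd21-3.1G0572700. NPF8.5 had 6.26, 5.9 and 4.46 CPM in roots of week 4 and 2.71, 2.07 and 1.57 CPM in roots of week 2, against 100.5, 121 and 101 CPM in shoots of week 4 and 92.3, 79 and 70.6 CPM in shoots of week 2. NPF5.2 had 9.12, 12 and 8.59 CPM in roots of week 4 and 5.86, 5.9 and 5.58 CPM in roots of week 2, against 149, 149 and 179.8 CPM in shoots of week 4 and 54, 60.1 and 88.1 CPM in shoots of week 2. Roots and shoots overlapped in neither gene, and the log2 differences of NPF8.5 were -4.28 ± 0.19 (SE; edgeR adjusted p = 1.62e-08) at week 4 and -5.24 ± 0.21 (SE; edgeR adjusted p = 3.43e-09) at week 2. Those of NPF5.2 were -4.01 at week 4 and -3.54 at week 2, and those of NPF3.1 were -3.10 at week 4 and -3.64 at week 2, all called. NPF6.2 had a log2 difference of -5.48 ± 1.06 (SE; edgeR adjusted p = 0.0013) at week 2, with 0.219, 0.0767 and 0.507 CPM in roots of week 2 against 8.69, 12.1 and 13.7 CPM in shoots of week 2. It did not pass the test at week 4, at -1.53 ± 0.78 (SE; edgeR adjusted p = 0.114).

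Several of the family's well expressed members differed little or moderately between organs. NPF8.3 match BdiBd21-3.2G0560800 had 134 ± 22.2 CPM in roots of week 4 against 145 ± 10.2 CPM in shoots of week 4 and 93 ± 15.3 CPM in roots of week 2 against 93.1 ± 10.8 CPM in shoots of week 2, and passed the organ test at neither week. NPF8.3 match BdiBd21-3.1G0927800 was lower in roots, with log2 differences of -0.38 at week 4 and -0.63 at week 2, the week 4 call being lost without week 4 root replicate 3 (edgeR adjusted p = 0.0566). NPF8.1 match BdiBd21-3.2G0035300 was lower in roots, with log2 differences of -0.25 at week 4 and -0.63 at week 2, the week 4 call being lost without any of the week 4 root libraries in turn (highest edgeR adjusted p = 0.111) and with no filter on low counts (edgeR adjusted p = 0.058). NPF8.3 match BdiBd21-3.3G0453200 was higher in roots by 1.73 ± 0.12 (SE; edgeR adjusted p = 2.05e-07) at week 4 and 1.55 ± 0.12 (SE; edgeR adjusted p = 4.06e-07) at week 2.

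Members lay in 19 groups of neighbours no more than 50 kb apart, which together held 58 of the 131 genes, and neighbours did not always share an organ. On chromosome 1, 67984931 to 68020461, 5 NPF8.3 genes lie together, of which 3 were higher and 1 lower in roots at week 4. At week 2, 3 were higher and 2 lower. On chromosome 2, 54167905 to 54229632, 10 members lie together, 8 NPF5 genes and 2 AMT3;1 matches. The AMT3;1 matches had 0 counts, and of the 8 NPF5 genes 4 were higher and 1 lower in roots at week 4, and 3 higher and 1 lower at week 2. Of all tested genes 32.4% were higher and 28.5% lower in roots at week 4, and 28.4% higher and 27.7% lower at week 2. Counts of close copies are uncertain to the extent that reads match more than 1 of them.

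Some members are named for other proteins. Of the 4 matches to At3g43790, a transporter of the major facilitator type, BdiBd21-3.4G0369000 was the most root-type at 76.4 ± 24 CPM in roots of week 4 and 125 ± 67.1 CPM in roots of week 2, against 0.511 ± 0.152 CPM in shoots of week 4 and 3.03 ± 4.77 CPM in shoots of week 2. Of its week 2 shoot libraries, replicate 1 had 8.54 CPM and the others 0.232 and 0.323 CPM. BdiBd21-3.2G0132100 was also higher in roots, at 40.5 ± 2.12 CPM in roots of week 4 against 4.18 ± 0.736 CPM in shoots of week 4, its neighbour BdiBd21-3.2G0132200 passed the test at neither week, and BdiBd21-3.2G0143000 was near the limit of detection and lower in roots. ArgJ, BdiBd21-3.1G0893800, and the folylpolyglutamate synthase BdiBd21-3.1G1037200 were higher in roots at week 4, by 1.86 and 0.72 on the log2 scale. The other folylpolyglutamate synthase, BdiBd21-3.3G0396200, was lower in roots, with a log2 difference of -1.71 at week 4, and NAGS2, BdiBd21-3.4G0597200, was lower in roots as well, at -0.72. NAGS1, BdiBd21-3.1G0301766, passed the test at week 2, at -1.53, and missed it at week 4, at -1.11 (edgeR adjusted p = 0.0523). Protein fluG, BdiBd21-3.3G0361600, was lower in roots, at -0.61 at week 4, and the asparagine synthetase domain protein BdiBd21-3.4G0050500 passed no test.

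Change with age was tested within each organ. Few nitrogen genes differed between week 4 and week 2 roots: 21 of 111 (18.9%), 16 higher and 5 lower at week 4, where 18.8% of all tested genes were called, 12.4% higher and 6.35% lower. The share was close to that of all tested genes. Ferredoxin-dependent glutamate synthase rose, by 0.73 ± 0.20 (SE; edgeR adjusted p = 0.0279) on the log2 scale, and glutamine synthetase 1-1 fell by 0.53 ± 0.13 (SE; edgeR adjusted p = 0.0164). Chloroplastic glutamine synthetase missed the threshold at 0.55 ± 0.18 (SE; edgeR adjusted p = 0.0534). Summed RuBisCO small subunit levels were 3085 to 3692 CPM in roots of week 4 and 642 to 1427 CPM in roots of week 2, 17 of the 26 tested chlorophyll a-b binding genes rose in roots, and the part of these leaf-type transcripts in the result was not tested.

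AMT2;1 rose in roots by 0.46 ± 0.09 (SE; edgeR adjusted p = 0.00663), and among NRT1/PTR members NPF5.10 match BdiBd21-3.2G0321700 rose by 0.76 ± 0.11 (SE; edgeR adjusted p = 0.00169) and NPF8.5 match 5G0020300 by 1.38 ± 0.20 (SE; edgeR adjusted p = 0.00142). NPF5.10 match BdiBd21-3.2G0720500 rose by 1.24. The largest log2 difference among the 21 was that of NPF6.2 match 2G0521300, 4.23 ± 1.06 (SE; edgeR adjusted p = 0.0212), which had 12, 1.58 and 1.01 CPM in roots of week 4 and 0.219, 0.0767 and 0.507 CPM in roots of week 2. Its mean rested on week 4 root replicate 1, and it was no longer called without replicate 1 or 2 of week 2 roots (highest edgeR adjusted p = 0.0918). The call also ended with the compared libraries alone (edgeR adjusted p = 0.0659) and by limma-voom (adjusted p = 0.11). NPF7.3 is a nitrate carrier that loads the xylem in Arabidopsis, and its match BdiBd21-3.3G0690400 fell by 1.49 ± 0.40 (SE; edgeR adjusted p = 0.0295), with 27.1, 49.8 and 58.1 CPM in roots of week 4 and 208, 102 and 69.6 CPM in roots of week 2. The groups did not overlap, but week 2 root replicate 1 was far above its group, and the call was lost without it or without week 4 root replicate 1 or 2 (highest edgeR adjusted p = 0.106). It was lost too with the compared libraries alone (edgeR adjusted p = 0.0799).

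The result in roots depended on single libraries. The count was 10 without week 2 root replicate 1, 14 without replicate 2 of week 2 roots or replicate 1 of week 4 roots, and 13 without week 4 root replicate 2, and 9 of the 21 calls held in all 12 such fits. The share of all tested genes called moved alike. It was 10.3% without week 2 root replicate 1, 12% without replicate 2 of that group, 9.4% without week 4 root replicate 1 and 10.3% without replicate 2 of that group. Ferredoxin-dependent glutamate synthase was among those lost, without replicate 1 of week 2 roots, replicate 2 of week 4 roots or replicate 2 of week 2 shoots (highest edgeR adjusted p = 0.114). Glutamine synthetase 1-1 was lost without week 2 or week 4 root replicate 1 (highest edgeR adjusted p = 0.0631). AMT2;1, 2G0321700, 2G0720500 and 5G0020300 kept their call in every such fit.

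In shoots 34 of 111 genes (30.6%) differed between week 4 and week 2, 15 higher and 19 lower at week 4, where 33.9% of all tested genes were called, 14.5% higher and 19.4% lower. Those that rose included carriers that were lower in roots, and also NADH-dependent glutamate synthase 1, which was higher in roots at both weeks. AMT1;1 rose by 1.08 ± 0.19 (SE; edgeR adjusted p = 0.0017) on the log2 scale and AMT2;1 by 0.76 ± 0.09 (SE; edgeR adjusted p = 0.000323). The NADH-type nitrate reductase rose by 0.79 ± 0.17 (SE; edgeR adjusted p = 0.00549), every week 4 shoot library standing above every week 2 shoot library. Ferredoxin-dependent glutamate synthase rose by 0.73 ± 0.20 (SE; edgeR adjusted p = 0.0171) and NADH-dependent glutamate synthase 1 by 0.87 ± 0.29 (SE; edgeR adjusted p = 0.0385). The ferredoxin-dependent call was lost in 5 of the 12 fits that leave out a library, each without a shoot library (highest edgeR adjusted p = 0.0677). The NADH-dependent call was lost in 7, without each shoot library in turn and without replicate 3 of week 2 roots (highest edgeR adjusted p = 0.120).

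Glutamine synthetase 1-1 in shoots also fell by 0.66 ± 0.13 (SE; edgeR adjusted p = 0.003), and asparagine synthetase 2 fell by 0.40 ± 0.07 (SE; edgeR adjusted p = 0.00139). NPF5.2 match 1G1012100 rose by 1.24 ± 0.18 (SE; edgeR adjusted p = 0.000594) and NPF2.11 match 4G0004700 by 1.02 ± 0.23 (SE; edgeR adjusted p = 0.00681). Several root-type genes fell in shoots from already low levels: AMT1;2 fell by 3.89 ± 1.11 (SE; edgeR adjusted p = 0.0233), the second NAR2.1 copy fell by 2.67 ± 0.76 (SE; edgeR adjusted p = 0.0205) and NPF4.4 match 4G0302200 fell by 1.61 ± 0.26 (SE; edgeR adjusted p = 0.00108). The calls of AMT1;2 and of the NAR2.1 copy were lost without week 2 shoot replicate 1 and without some of the week 4 shoot libraries (highest edgeR adjusted p = 0.0855 and 0.0736) and by limma-voom (adjusted p = 0.284 and 0.274). That of 4G0302200 held in every such fit. Root cap genes summed to 1.21, 1.82 and 0.953 CPM in shoots of week 4 and to 2.97, 1.86 and 1.24 CPM in shoots of week 2. Casparian strip membrane protein genes summed to 2.97, 3.24 and 3.81 CPM in shoots of week 4 and to 3.57, 4.00 and 3.50 CPM in shoots of week 2. The part of both sets in these falls was not tested. The count of calls in shoots was 24 without week 2 shoot replicate 1 and 25 without replicate 2 of week 2 shoots or replicate 2 or 3 of week 4 shoots, where 24% to 26.7% of all tested genes were called.

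Across the organs, 7 of 111 members (6.31%) rose with age in both, against 4.86% of all tested genes. In both, 3 (2.7%) fell, against 4.03%. AMT2;1, NAGS2 and NPF5.10 match 2G0321700 kept both calls in every fit with a library left out. The other 4 that rose, ferredoxin-dependent glutamate synthase and the NPF genes 2G0560800, 1G1012100 and BdiBd21-3.1G0928100, lost their root call in 2 to 7 of these fits. By limma-voom 1G1012100 lost it as well (adjusted p = 0.0668). None of the 3 that fell kept its root call throughout: glutamine synthetase 1-1, ArgJ and NPF8.3 match BdiBd21-3.3G0514900 lost it in 2, 4 and 4 fits. The NPF8.3 match had 23.3 ± 4.31 CPM in roots of week 4 against 33.6 ± 3.69 CPM in roots of week 2, and 22 ± 4.07 CPM in shoots of week 4 against 34.8 ± 3.38 CPM in shoots of week 2.

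The change from week 2 to week 4 in roots minus that in shoots was tested directly as an interaction. It was called for 11 of the 111 genes (9.91%), all positive, where 8.52% of all tested genes were called, 6.56% positive and 1.95% negative. The median over the 111 was 0.24 on the log2 scale and over all tested genes 0.11. All 11 were NRT1/PTR members, 14.1% of the 78 tested in that family. Among the other 33 members edgeR called 0. Of these 33, 9 had an unadjusted edgeR p under 0.05, beside 6535 of all 26463 tested genes. Limma-voom called 0 of the 33, and 10.8% of all tested genes. DESeq2 called 4: AMT1;2, the second NAR2.1 copy, NAGS2 and asparagine synthetase 4G0624100. It called 11.4% of all genes it was fitted to. Of the 26 tested chlorophyll a-b binding genes 16 had a positive interaction by the test, and their part in the result was not tested.

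Of the 11, 8 fell in shoots with age and 4 rose in roots, 1 of them doing both. NPF4.4 match 4G0302200 had 66.8, 44.4 and 42.1 CPM in roots of week 4 and 30, 36.2 and 33 CPM in roots of week 2, against 2.69, 2.22 and 2.49 CPM in shoots of week 4 and 10.7, 5.9 and 6.14 CPM in shoots of week 2, an interaction of 2.24 ± 0.34 (SE; edgeR adjusted p = 0.00341). NPF8.1 match BdiBd21-3.2G0741400 had 4.64, 3.49 and 5.81 CPM in roots of week 4 and 4.11, 4.06 and 4.01 CPM in roots of week 2, against 2.09, 1.54 and 1.96 CPM in shoots of week 4 and 11.5, 7.99 and 6.36 CPM in shoots of week 2, an interaction of 2.40 ± 0.37 (SE; edgeR adjusted p = 0.00338). It was higher in roots at week 4 (1.31) and lower in roots at week 2 (-1.09), both called. NPF5.2 match BdiBd21-3.3G0370000 did the same more sharply, with 3.32, 3.53 and 4.67 CPM in roots of week 4 and 0.656, 0.422 and 1.17 CPM in roots of week 2, against 1.81, 0.797 and 0.53 CPM in shoots of week 4 and 5.23, 4.14 and 3.83 CPM in shoots of week 2. It rose in roots and fell in shoots, with an interaction of 4.42 ± 0.63 (SE; edgeR adjusted p = 0.0023), although all its levels were low.

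NPF4.3 match BdiBd21-3.4G0553700 rose in roots by 1.23 ± 0.28 (SE; edgeR adjusted p = 0.0128), a call lost without week 2 or week 4 root replicate 1 (highest edgeR adjusted p = 0.0579), and its interaction was 1.86 ± 0.40 (SE; edgeR adjusted p = 0.0171). It had 21, 10.4 and 16.7 CPM in roots of week 4 and 5.42, 7.51 and 7.55 CPM in roots of week 2, against 12.4, 16.3 and 9.9 CPM in shoots of week 4 and 15.1, 25.3 and 19.3 CPM in shoots of week 2. These 4 and NPF8.5 match BdiBd21-3.5G0266700 kept their interaction call in every fit that left out a library, and the other 6 did not. The count of 11 was 5 without replicate 1 or 2 of week 2 shoots or replicate 3 of week 4 shoots, 6 without replicate 2 of week 2 roots, or replicate 1 or 2 of week 4 roots, and 7 without week 4 shoot replicate 2, where 4.88% to 6.14% of all tested genes were called.

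**Figure D5:**
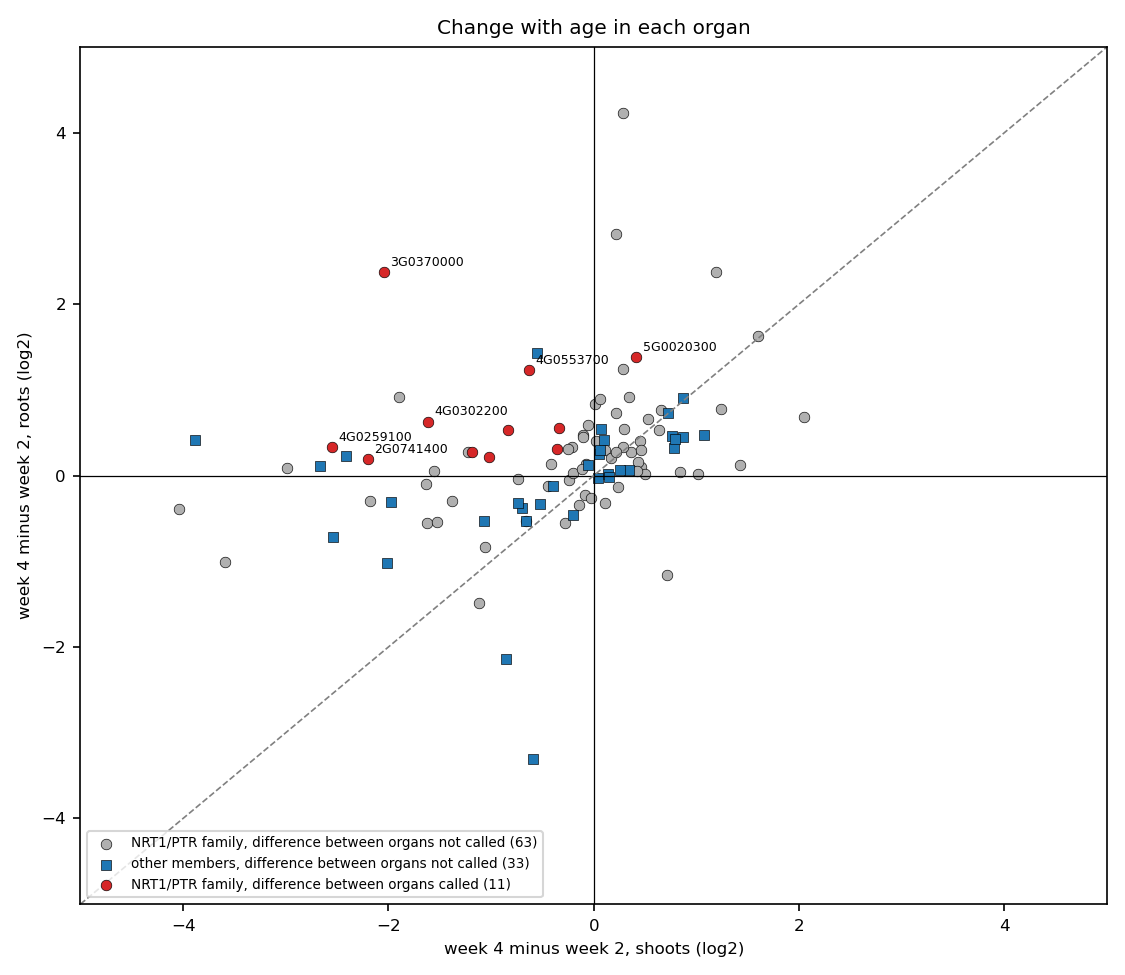
Log2 change from week 2 to week 4 in shoots (x axis) and roots (y axis) for 107 tested nitrogen genes. The dashed line marks equal change, red points are the 11 genes whose change differs between organs by the interaction test, and 6 of these are labelled by identifier. All 11 red points lie above the line.

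Root replicates spread unevenly. Replicate 1 was the lowest of the 3 libraries for 23 of the 33 tested members outside the NRT1/PTR family in week 4 roots (69.7%, against 39.0% of all tested genes) and for 18 of 33 in roots of week 2 (54.5%, against 41.9%). Over all 111 tested members, with the NRT1/PTR family included, the shares were nearer to those of all tested genes, at 50.5% in week 4 roots and 45.9% in week 2 roots. Summed over all members outside that family, CPM was 6947, 11193 and 11027 in roots of week 4 and 6815, 10964 and 9138 in roots of week 2. In shoots the sums were closer, at 7884, 9156 and 8983 CPM at week 4 and 6699, 6358 and 6469.6 CPM at week 2. Root sums therefore overlapped with shoot sums at week 4, and the lowest root sum at week 2 was barely above the highest shoot sum. Replicates came from different plants, and the sample titles do not say whether roots and shoots with a shared number came from shared plants.

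Other genes of nitrogen metabolism, found by keyword and kept where the best match itself carries the keyword, gave 160 tested genes. Of these 62 were higher and 52 lower in roots at week 4, and 59 higher and 48 lower at week 2. Of all tested genes 32.4% were higher and 28.5% lower at week 4, and 28.4% were higher and 27.7% lower at week 2. Among the S-type anion channels, of which SLAH members pass nitrate and chloride, 3 of 6 were higher and 1 lower in roots at each week. SLAH3 match BdiBd21-3.2G0561100 had 59 ± 6.34 CPM in roots of week 4 against 0.384 ± 0.196 CPM in shoots of week 4. The guard cell channel SLAC1, BdiBd21-3.5G0248600, had 0.0937 ± 0.0858 CPM in roots of week 4 against 22 ± 3.27 CPM in shoots of week 4.

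The nitrogen sensor PII homolog, BdiBd21-3.2G0491200, was lower in roots, with a log2 difference of -1.19 ± 0.10 (SE; edgeR adjusted p = 8.06e-07) at week 4. Of the 3 glutamate dehydrogenases, which can release ammonium from glutamate, 2 were higher in roots at each week, and glutamate dehydrogenase 2, BdiBd21-3.5G0227000, had 107 ± 14.1 CPM in roots of week 4 and 148 ± 11.3 CPM in roots of week 2, against 66.3 ± 19.6 CPM in shoots of week 4 and 40.4 ± 8.19 CPM in shoots of week 2. All 4 alanine aminotransferases were higher in roots at week 4 and 3 of them at week 2. The 5 tested dicarboxylate transporters, which move the carbon skeletons that glutamate synthase needs, had 1 member higher and 4 lower in roots at each week. Of 9 tested NLP and RKD genes, which in Arabidopsis include regulators of the nitrate response, 3 were higher and 4 lower in roots at week 4. Of 40 tested amino acid transporters, 19 were higher and 11 lower in roots at week 4. Beside all these counts stand 32.4% of all tested genes higher and 28.5% lower in roots at week 4. At week 2 these shares were 28.4% and 27.7%.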

How the data were processed

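Poly(A) RNA of 12 libraries was sequenced, and the authors deposited 1 table of raw read counts per gene with descriptions, lengths and coordinates. Per the submitters' processing notes, HISAT2 2.0.5, featureCounts 1.5.0-p3 and HTSeq 0.6.1 were used, without stated roles. No source used here names the genome build, the strandedness of counting or how multi-matching reads were handled, and the labels name both directional and non-directional library preparation. Coordinates are those of the deposited table. Columns were matched to samples by tissue, week and replicate number, since the short code in the titles of the week 4 shoots is the same for all 3.

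From these counts, edgeR 4.0.16 (R 4.3.3) tested the 26463 genes that passed filterByExpr (minimum count 10, minimum total 15) with TMM scaling and the robust quasi-likelihood F test over 4 group means. Adjustment was by Benjamini-Hochberg over all tested genes, with a threshold of 0.05. The same steps were tested on simulated counts for all 12 libraries with known changes in week 4 roots, for the comparison of week 4 with week 2 roots. SE is the log2 difference divided by the square root of F. Level per kilobase is CPM over the deposited gene length. Counts of replicates differed beyond sampling noise (chi-square over its degrees of freedom, 6.66 to 33.5). DESeq2 1.42.0 and limma-voom (limma 3.58.1) were alternatives.

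Genes named with values are the tested members outside the NRT1/PTR family, the 8 highest NRT1/PTR members per kilobase, and the 3 highest and 3 lowest called members of each comparison whose average log2 CPM is 2 or more. Other named genes (untested members, NPF6.3 copies 3G0432200 and 1G1044700, 5G0184300, 3G0370000 and the remaining interaction genes, and genes outside the rule) were chosen after their values were seen. The members and lists were chosen with earlier results of these data known, and the lists of other nitrogen genes were narrowed after keywords were found to match other proteins.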

Additional observations from a re-analysis of the deposited data

Results flagged for a closer look

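For 11 NRT1/PTR members the change with age differed between roots and shoots by the interaction test (edgeR quasi-likelihood test, Benjamini-Hochberg adjusted over all tested genes). All differences, the log2 change in roots minus that in shoots, were positive. Those that held in every fit with a library left out were 4.42 for 3G0370000 (NPF5.2), 2.40 for 2G0741400 (NPF8.1), 2.24 for 4G0302200 (NPF4.4), 1.86 for 4G0553700 (NPF4.3) and 1.23 for 5G0266700 (NPF8.5). Those lost in some of these fits were 2.88 for BdiBd21-3.4G0259100 (NPF8.3), 1.46 for BdiBd21-3.1G0928000 (NPF8.3), 1.36 for BdiBd21-3.2G0720200 (NPF5.10), 0.97 for 5G0020300 (NPF8.5), 0.89 for BdiBd21-3.2G0335200 (NPF3.1) and 0.66 for BdiBd21-3.2G0720600 (NPF5.10). The lost ones failed in 4 to 10 of the 12 fits. Under other settings than a fold change of 2, 5G0020300 was also lost with RLE or upper-quartile scaling, the filter of 1 CPM in 3 libraries and limma-voom, 1G0928000 with limma-voom, 2G0720200 with RLE scaling and 4G0259100 with the replicate block.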

How the results depend on the processing

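Counts of called members are given for roots against shoots at week 4 (81) and week 2 (83), week 4 against week 2 within roots (21) and within shoots (34), and the interaction (11). Against a fold change of 2 they were 54, 54, 0 (6 at an unadjusted p under 0.05), 1 and 1. Of all tested genes 29.2%, 26.3%, 0.0718%, 3.4% and 0.231% were then called. DESeq2 was fitted to every gene with a count, which took in 124 members in place of 111. The DESeq2 interaction count was 20, 18 positive and 2 negative, beside 11.4% of all genes fitted. Its shoot count was 44, 16 higher and 28 lower, beside 29.7% of all genes fitted. This puts 36.4% of the shoot calls on the higher side, against 44.1% in the edgeR fit. Leaving out each library in turn gave 72 to 82, 81 to 86, 10 to 24, 24 to 38 and 5 to 13 calls, and 68, 76, 9, 21 and 5 of the calls held in all 12 such fits. These fits called 54.6% to 60.4%, 49.5% to 56.3%, 9.4% to 21.3%, 24% to 34.5% and 4.88% to 13.1% of all tested genes. Without week 4 shoot replicate 1 the interaction was called for 12 of 111 members, beside 13.1% of all tested genes. The other settings (RLE, upper-quartile and trimmed scaling, other low-count filters, limma-voom, the compared libraries alone, the replicate block, and DESeq2 where not given above) gave 75 to 85, 82 to 85, 18 to 30, 30 to 35 and 9 to 11 calls. They tested 99 to 124 members, and called 48% to 63.9%, 44.2% to 58.5%, 13.4% to 24.3%, 24.9% to 37.6% and 6.08% to 10.8% of all their genes. By limma-voom the interaction was called for 9 of 111 members, beside 10.8% of all tested genes. The fit of the compared libraries alone does not exist for the interaction, which needs all 4 groups. With the replicate number as a block the counts were 79, 83, 18, 34 and 11, beside 59.6%, 54.6%, 15.9%, 32.2% and 7.4% of all tested genes. The block ended 10 calls (edgeR adjusted p of 0.0507 to 0.0818): the root age calls of 3G0690400, 2G0521300 and ArgJ, the week 4 organ calls of 2G0035300, BdiBd21-3.3G0370200, BdiBd21-3.4G0292200 and BdiBd21-3.4G0553600, the shoot age calls of BdiBd21-3.2G0720400 and 5G0184300, and the interaction call of 4G0259100. The correlation of deviations between same-numbered libraries lay between -0.12 and 0.18. Between roots and shoots it was 0.18, 0.07 and 0.11 at week 2 and -0.12, 0.04 and -0.11 at week 4. It was not computed for libraries of different number, so these values cannot decide whether the numbers stand for pairing. The main fit used no pairing. None of the named genes reversed direction where called. Without length scaling, 44 of the 56 named genes changed rank by level. Depth limits the 20 untested members, which had at most 52 counts each over 12 libraries. The cause of these differences was not tested.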
